A study of Mus musculus with 2 samples.

Results

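The genes described here encode 9 receptors and ligands on the T cell surface that adjust the signal of the antigen receptor: Cd28, Icos, Cd40lg, Cd2, Ly9, Slamf1, Cd226, Cd5 and Cd6. They form a list fixed by gene name, with no threshold on their values, and are 9 of the 22686 genes listed in the molecule tables of either library. All 9 were listed in both. The data are single-cell RNA counts of spleen T cells from mice of 2 genotypes, 8 to 9 weeks old, with 1 library each. The first, LatY136F CD45-KO, carries the LatY136F mutation on a background without CD45, a transmembrane phosphatase whose gene is Ptprc. The second, LatY136F, carries the same mutation with CD45 intact. In LatY136F mice a tyrosine of the adaptor LAT that binds phospholipase C gamma is replaced, and the animals are known for a lymphoproliferation of T helper 2 type, so neither group is a wild type. CD3+CD5+ cells were sorted alive and captured with the BD Rhapsody system. How many mice each library pools is not stated in the labels, so each is treated as 1 sample.

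T cells respond fully when the antigen receptor signal is joined by a second, costimulatory signal. CD28, the best known of these receptors, binds CD80 and CD86 on antigen-presenting cells, and its relative ICOS appears after activation, binds the ICOS ligand and is needed by follicular helper T (Tfh) cells. CD5 and CD6 belong to the scavenger receptor cysteine-rich family and are known to damp antigen receptor signals, and CD5 rises with the strength of that signal during thymic development.

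Both CD28 and ICOS recruit phosphatidylinositol 3-kinase through a short tyrosine motif in the cytoplasmic tail, and the SLAM family receptors bind the adaptor SAP (Sh2d1a) through a tyrosine switch motif. These coding stretches are shown because they set out what each receptor pair has in common, with the codons of the motif in capitals (GENCODE M21 transcripts, GRCm38, 5′ to 3′ on the coding strand). The Cd28 stretch lies in exon 4 of 4 at chr1:60769681-60769716 on the plus strand and reads tyrosine, methionine, asparagine, methionine. The Icos stretch lies in exon 4 of 4 at chr1:60995548-60995583 on the plus strand and has phenylalanine in place of asparagine. The Ly9 stretches lie in exon 8 of 10 at chr1:171593900-171593941 and in exon 9 of 10 at chr1:171593426-171593467, both on the minus strand. The Slamf1 stretches lie in exon 5 of 7 at chr1:171792327-171792368 and in exon 7 of 7 at chr1:171799576-171799617, both on the plus strand. In Ly9 and Slamf1 the capitals code for threonine, any residue, tyrosine, any residue, any residue and valine.
Cd28 tail: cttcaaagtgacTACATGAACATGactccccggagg
Icos tail: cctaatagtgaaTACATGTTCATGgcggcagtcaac
Ly9 switch motif, exon 8: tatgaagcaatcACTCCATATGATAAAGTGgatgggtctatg
Ly9 switch motif, exon 9: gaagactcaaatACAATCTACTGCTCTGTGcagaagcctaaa
Slamf1 switch motif, exon 5: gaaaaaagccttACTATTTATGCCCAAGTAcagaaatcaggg
Slamf1 switch motif, exon 7: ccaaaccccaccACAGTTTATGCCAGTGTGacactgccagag

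The tables held 12845 CD45-KO cells with 29268453 unique molecular identifiers (UMIs) and 13775 LatY136F cells with 35300371. After filters on gene number and mitochondrial share, 12763 CD45-KO and 13723 LatY136F T cells remained, with medians of 1988 and 2154 UMIs per cell. T cell receptor constant chain transcripts were detected in 99.5% of the CD45-KO and 99.9% of the LatY136F T cells. The 9 markers of B and myeloid cells summed to 10.7 counts per 1000000 UMIs (CPM) in the CD45-KO and 6.91 CPM in the LatY136F T cells, after 71 CD45-KO and 24 LatY136F cells led by those markers were set aside. None of the 9 was at 0 in CD45-KO and 2 were in LatY136F, and the part of such RNA in the results was not tested. Ptprc itself was present at 1177 CPM in CD45-KO and 1759 CPM in LatY136F T cells (log2 ratio -0.58). Which part of the gene was deleted is not stated in the labels, and RNA from other exons says nothing about the protein. The tables shared 223 cell indices. Without those cells the 9 ratios between genotypes differed little, with Icos at -0.64 and Cd226 at 0.44.

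Levels below are CPM, a gene's summed UMIs scaled to the total of the cells named, and ratios are log2 of the CPM in CD45-KO over that in LatY136F. Because there is 1 library per genotype, no difference has a replicate check and no test was possible. Intervals, exact at 95%, cover the error of counting molecules for levels and ratios, and of counting cells for shares, and nothing else. Those of levels and ratios leave out the spread between cells. CPM is not scaled for transcript length and was compared only within a gene. In sums over cells, fewer cells that express a gene and less RNA per cell cannot be told apart unless the share of cells is given. A ratio counts as past the threshold when it exceeds 1.5-fold in either direction, which 7.15% of the 8306 genes that reached 10 CPM in either library did. Of the 9 members, 8 reached 10 CPM and Slamf1 did not.

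Among the 8, Icos alone was past 1.5-fold, in the lower direction, where 4.41% of all genes lay. With at most 10% mitochondrial UMIs per cell, in place of 25%, Icos was 1.48-fold lower and no member was past the threshold. The median ratio of the 8 was 0.12, beside 0.02 for all 8306 genes, whose central range from the 5th to the 95th percentile ran from -0.55 to 0.46. Icos lay outside that range on the low side. Cd226, at 0.43, lay near its upper end, with 94.3% of genes at a lower ratio.

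**Figure D1:**
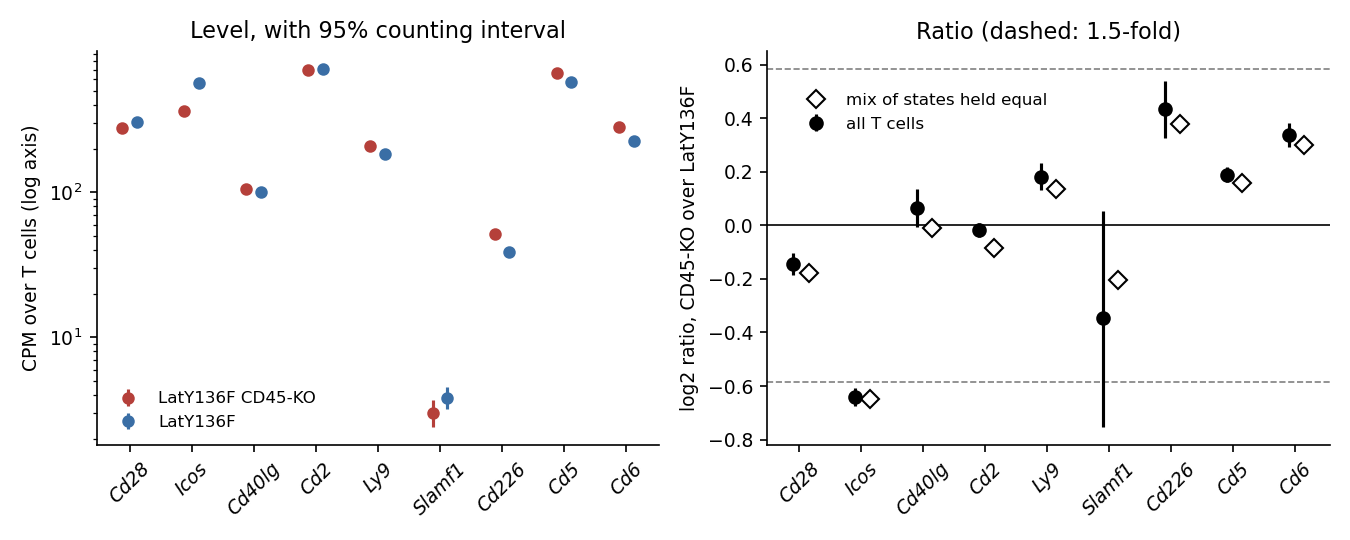
Levels of the 9 members over T cells (left, CPM on a log axis, points with 95% counting intervals, LatY136F CD45-KO left of LatY136F) and their log2 ratio of CD45-KO over LatY136F (right). Filled points are all T cells and open diamonds hold the mix of cell states equal, and Icos at -0.64 is the member beyond the dashed 1.5-fold lines among those with at least 10 CPM.

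Cell states were assigned from transcripts of marker genes that include no member, and each cell was given 1 state. Cells were called cycling by genes of mitosis and DNA synthesis, Tfh-gated by Cxcr5, Bcl6, Sostdc1 and Il21, and interferon-gated by interferon-induced genes. Others were Cd8-positive, Trdc-positive (the constant chain of the gamma delta receptor), granzyme-positive (Gzma, Gzmb), Th2 cytokine-positive (Il4, Il5, Il13) or Il1rl1-positive (the interleukin 33 receptor). Cells in no gate are called the remainder. The mix differed between libraries: granzyme-positive cells were 0.870% of CD45-KO and 6.56% of LatY136F T cells, cycling cells 3.02% and 9.28%, Tfh-gated cells 2.09% and 1.08%, and Il1rl1-positive cells 54.4% and 43.6%. Foxp3-positive and naive-gated cells numbered under 50 in 1 library and gave no ratio, which left 9 states. With the mix of states held equal, the ratios were -0.65 for Icos and 0.38 for Cd226, and the one that moved most was that of Slamf1, by 0.14. That of Cd40lg went from 0.07 to -0.01 and was the only ratio to change sign. Under that weighting 2.42% of all genes were past 1.5-fold in the lower direction.

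Icos (ENSMUSG00000026009.14; GRCm38 chromosome 1, 60977927 to 61000320, plus strand, protein coding) had 10414 UMIs in CD45-KO and 19827 in LatY136F T cells. Its level was 361 CPM in CD45-KO (355 to 368) and 564 CPM in LatY136F (556 to 572), a ratio of -0.64 (-0.68 to -0.61), or 1.56-fold lower. Only 3.62% of all genes had a lower ratio. After thinning each cell to 1000 UMIs, 25.02% of 12406 CD45-KO T cells and 36.7% of 13290 LatY136F T cells carried an Icos UMI. Before thinning the shares were 41.5% and 57.5%. The thinned shares in the cells set aside as non-T were 2.90% of 69 CD45-KO cells, whose median depth was 5741 UMIs before thinning, and 8.70% of 23 LatY136F cells, at 4042 UMIs. Icos was thus detected in fewer CD45-KO than LatY136F T cells at equal depth, and in both libraries in more T cells than non-T cells. An unconfirmed gene model on the same strand, Gm37039, lies inside the Icos locus, and whether its reads were counted for Icos is not stated in the file headers.

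Within states, Icos was lower in CD45-KO in 8 of 9, and past 1.5-fold in 7 of them. In the remainder it stood at 369 CPM in CD45-KO and 602 CPM in LatY136F (-0.70, -0.77 to -0.64), and in Il1rl1-positive cells at 303 and 503 CPM (-0.73, -0.79 to -0.68). Of all genes, 3.79% were past 1.5-fold lower in the remainder and 3.88% in Il1rl1-positive cells. The difference was thus present in the classes that hold most of the cells. Granzyme-positive cells had 299 CPM in CD45-KO and 606 CPM in LatY136F (-1.02, -1.33 to -0.72), interferon-gated cells 355 and 711 CPM (-1.33 to -0.68), and Trdc-positive cells 305 and 594 CPM (-0.96). In these small states 17.3%, 19.3% and 22.1% of all genes were past 1.5-fold lower. Th2 cytokine-positive cells, at 417 and 681 CPM (-0.71), and Cd8-positive cells, at 363 and 552 CPM (-0.61), were the others past 1.5-fold, as were 8.62% and 25.2% of all genes there. Cycling cells, at 400 CPM in CD45-KO and 554 CPM in LatY136F (-0.47), stayed inside 1.5-fold.

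Tfh-gated cells went the other way. Icos stood at 1116 CPM in 267 CD45-KO cells (1049 to 1186) and 916 CPM in 148 LatY136F cells (833 to 1006), a ratio of 0.28 (0.12 to 0.45). This was 1.22-fold higher, inside the 1.5-fold threshold. In this state 12.5% of all genes were past 1.5-fold higher and 11.3% past it lower. The thinned shares with an Icos UMI were 57.8% (51.6 to 63.8) in CD45-KO and 51.4% (43.0 to 59.7) in LatY136F, and those intervals overlapped. Over the 8 other settings of gates and filters tried for these cells, chosen after seeing the data, the Tfh-gated ratio ran from 0.28 to 0.48 and that of the remainder from -0.71 to -0.65. The gate genes were detected in similar shares of the gated cells: Cxcr5 in 43.1% of CD45-KO and 45.9% of LatY136F cells, Bcl6 in 54.7% and 48.0%, Sostdc1 in 71.2% and 68.9%, and Il21 in 42.7% and 36.5%. Ptprc was lower in CD45-KO in the Tfh-gated cells too (-0.53) and in the 8 other states (-0.76 to -0.60). No test of the difference between states could be made with 1 library per genotype.

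Tfh-gated cells had the highest Icos level of the 9 states in both libraries, with intervals apart from the next state. Against the remainder of the same library, the Tfh-gated ratio was 1.60 (1.49 to 1.70) in CD45-KO and 0.61 (0.46 to 0.75) in LatY136F, past 1.5-fold in both, as for 8.63% of all genes. With the gates applied independently, so that cycling and Foxp3-positive cells could also be Tfh-gated, the LatY136F value no longer passed. Below the Tfh-gated cells, the intervals of neighbouring states overlapped throughout in CD45-KO. In LatY136F the order began with interferon-gated (711 CPM) and Th2 cytokine-positive cells (681 CPM) and ended with Il1rl1-positive cells (503 CPM).

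**Figure D2:**
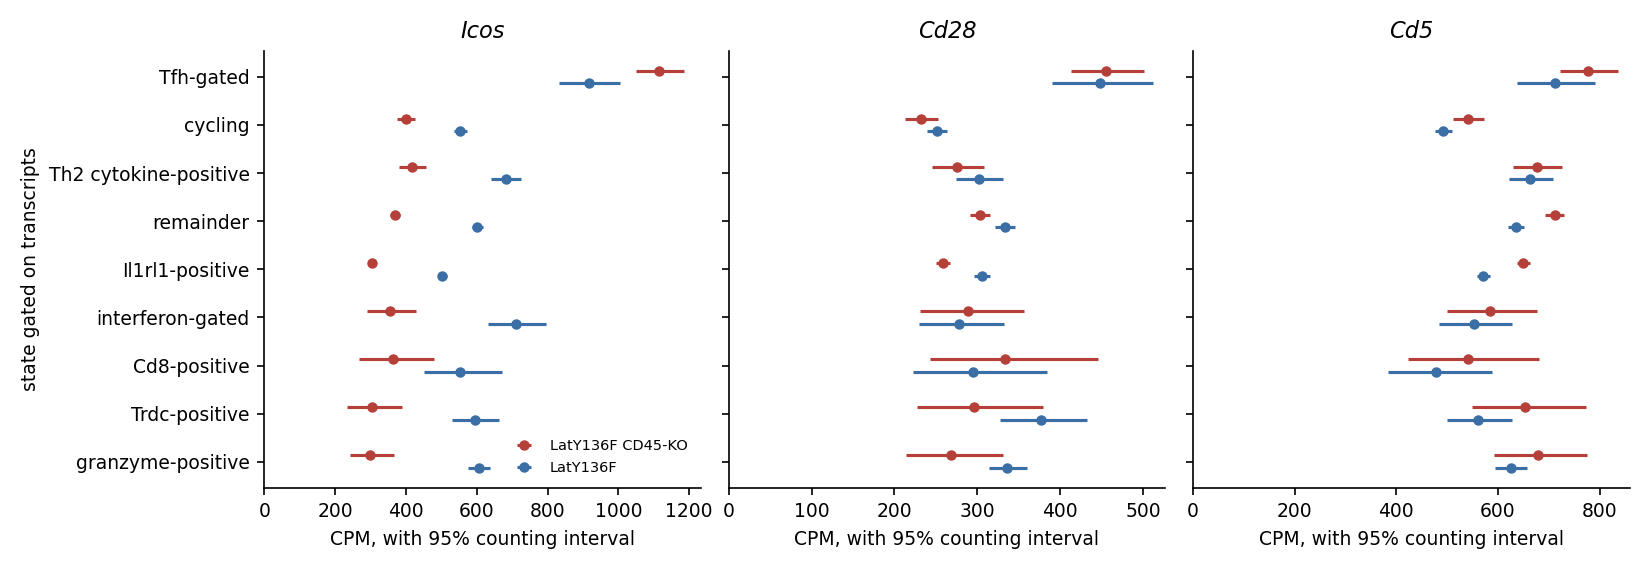
Levels of Icos, Cd28 and Cd5 in CPM (horizontal axes from 0, points with 95% counting intervals) in the 9 T cell states, with LatY136F CD45-KO above LatY136F. Icos is lower in CD45-KO in each state except the Tfh-gated cells (1116 against 916 CPM), while the Cd28 and Cd5 points of the genotypes lie close together.

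Cells with UMIs of Ikzf2, which encodes the transcription factor Helios, had more Icos than cells without, with 522 against 340 CPM in CD45-KO (0.62) and 706 against 557 CPM in LatY136F (0.34). Outside the Tfh-gated and cycling cells those log2 differences were 0.14 in CD45-KO and 0.45 in LatY136F. In cells positive for early genes of receptor stimulation (the Nr4a and Egr families) the genotype ratio of Icos was -0.50, and in cells without them -0.69. None of the 8 members with at least 10 CPM was past 1.5-fold in both libraries between cells with and without these genes. Slamf1 was higher in Ikzf2-positive cells, by 0.96 on the log2 scale in CD45-KO (0.13 to 1.73) and 1.59 in LatY136F (0.77 to 2.33), from 18 and 17 UMIs. Of the genes with at least 10 CPM, a set without Slamf1, 2.87% were higher and 0.951% lower past 1.5-fold in Ikzf2-positive cells of both libraries. In early-gene-positive cells the shares were 0.301% and 0.012%.

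Cd28 (ENSMUSG00000026012.2; chromosome 1, 60716800 to 60773359, plus strand, protein coding) lies near Icos on the same strand and differed much less between genotypes. It stood at 277 CPM in CD45-KO (271 to 283) and 307 CPM in LatY136F (301 to 312), a ratio of -0.15 (-0.19 to -0.10). At equal depth 23.3% of CD45-KO and 24.5% of LatY136F T cells had a Cd28 UMI, beside 10.1% and 8.70% of non-T cells. The ratio within states ran from -0.35 in Trdc-positive to 0.18 in Cd8-positive cells, none past 1.5-fold. The top of the order was held by Tfh-gated cells, with 455 CPM in CD45-KO and 448 CPM in LatY136F, and the bottom by cycling cells, with 231 and 251 CPM. At both ends the intervals overlapped those of the next state in both libraries. The Tfh-gated level was 0.59 above the remainder on the log2 scale in CD45-KO and 0.43 in LatY136F. At equal depth 28.4% of CD45-KO cells with a Cd28 UMI also had an Icos UMI, against 24.0% of those without. In LatY136F the shares were 39.0% and 36.0%.

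Cd40lg (ENSMUSG00000031132.1; chromosome X, 57212143 to 57224042, plus strand, protein coding) encodes the CD40 ligand, through which helper T cells license B cells and dendritic cells. Its levels were 105 CPM in CD45-KO and 100 CPM in LatY136F, a ratio of 0.07 with an interval that held 0 (-0.01 to 0.14). Tfh-gated cells had 160 CPM in CD45-KO, above the remainder with intervals apart, and 135 CPM in LatY136F, where the interval overlapped that of Th2 cytokine-positive cells at 132 CPM. In Th2 cytokine-positive cells Cd40lg stood at 94.97 CPM in CD45-KO and 132 CPM in LatY136F (-0.48, -0.83 to -0.13), and in granzyme-positive cells at 68.5 and 103 CPM (-0.59). The granzyme-positive value rests on 22 UMIs in CD45-KO and its interval held 0, and 17.3% of all genes were past 1.5-fold lower there. Cells positive for early genes exceeded cells without them by 0.08 on the log2 scale in CD45-KO and by 0.31 in LatY136F.

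**Figure D3:**
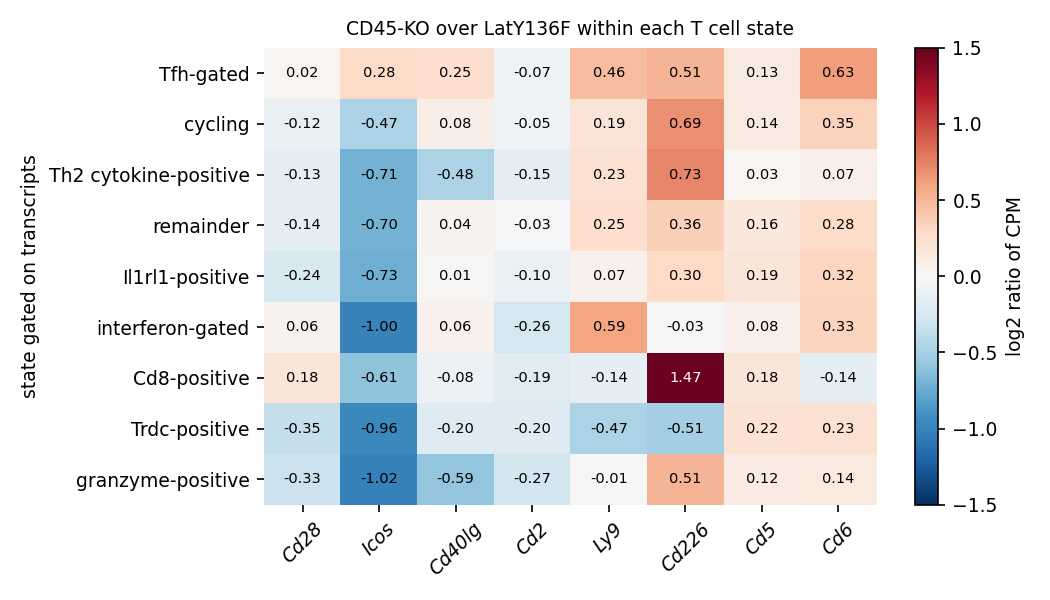
Log2 ratio of CPM, LatY136F CD45-KO over LatY136F, for the 8 members with at least 10 CPM (columns) in the 9 T cell states (lines), with the value printed in each cell of the grid. Icos is below 0 in 8 states and at 0.28 in Tfh-gated cells, Cd5 is above 0 in all 9, and the 1.47 of Cd226 in Cd8-positive cells rests on 14 and 7 UMIs.

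Cd2 (ENSMUSG00000027863.8; chromosome 3, 101275899 to 101287939, minus strand, protein coding) is an adhesion receptor that binds CD48 in the mouse. Over all T cells it was level between genotypes, with 695 CPM in CD45-KO and 704 CPM in LatY136F (-0.02, -0.04 to 0.01). Within states its genotype ratio was below 0 in all 9, from -0.27 in granzyme-positive cells to -0.03 in the remainder, none past 1.5-fold. With the mix of states held equal the ratio was -0.08. Across states the level of Cd2 was far from even. Cycling cells had 488 CPM against 762 CPM in the remainder of the CD45-KO library (-0.64), and 507 against 779 CPM in LatY136F (-0.62), past 1.5-fold lower in both, as for 10.1% of all genes. In both libraries cycling cells were the lowest state, with an interval apart from that of the next. Tfh-gated cells were highest, with 987 CPM in CD45-KO and 1037 CPM in LatY136F and intervals apart from the next state. Cycling cells were also below the remainder in both libraries for Cd28, Cd5, Cd6, Cd40lg, Ly9 and Cd226, though not past 1.5-fold in both. For Icos they were at 0.11 in CD45-KO and -0.12 in LatY136F. Median depth was 5012 UMIs in cycling and 1832 in remainder cells of CD45-KO, and 4552 and 1974 in LatY136F.

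Ly9 (ENSMUSG00000004707.14; chromosome 1, 171588624 to 171607410, minus strand, protein coding) encodes CD229, a SLAM family receptor that binds itself on another cell. It had 209 CPM in CD45-KO and 184 CPM in LatY136F, a ratio of 0.18 (0.13 to 0.23). Within states the ratio was above 0 in 6 of 9 and below 0 in 3, lowest in Trdc-positive cells (-0.47, -1.08 to 0.09). Unlike Icos, Cd28, Cd2 and Cd40lg, Ly9 was below the remainder in Tfh-gated cells, by a log2 difference of -0.29 in CD45-KO and -0.49 in LatY136F. In interferon-gated cells it stood at 231 CPM in CD45-KO and 154 CPM in LatY136F (0.59, 0.08 to 1.10), past 1.5-fold as 17.4% of all genes were in the higher direction there. Cd244a overlaps Ly9 on the opposite strand and had 29 and 10 UMIs.

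Slamf1 (ENSMUSG00000015316.11; chromosome 1, 171767127 to 171801184, plus strand, protein coding), the founding SLAM receptor, was near the limit of detection. It had 87 UMIs in CD45-KO and 135 in LatY136F, or 3.02 CPM (2.42 to 3.72) and 3.84 CPM (3.22 to 4.55). The ratio of -0.35 had an interval from -0.75 to 0.05, so a difference was not detectable at this depth. Its 10 UMIs in Tfh-gated CD45-KO cells gave 10.7 CPM, against 3.68 CPM in the remainder. In LatY136F the 4 Tfh-gated UMIs gave 8.29 CPM, against 3.95 CPM. Both ratios exceeded 1.5-fold, at 1.54 (0.35 to 2.62) in CD45-KO and 1.07 (-0.88 to 2.55) in LatY136F. Il1rl1-positive cells were lower than the remainder, with ratios of -0.84 (-1.61 to -0.07) in CD45-KO and -0.95 (-1.72 to -0.19) in LatY136F, from 31 and 27 UMIs. Neither comparison has a share of all genes beside it, because those shares cover genes that reached 10 CPM over T cells. How often genes as scarce as Slamf1 pass 1.5-fold in these states was not tested. No UMI was found in interferon-gated or Cd8-positive cells of either library, where 3 counts would have been 10.1 CPM in CD45-KO and 7.11 CPM in LatY136F for interferon-gated cells and 22.2 and 16.1 CPM for Cd8-positive cells.

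Cd226 (ENSMUSG00000034028.16; chromosome 18, 89176967 to 89272229, plus strand, protein coding) encodes DNAM-1, an activating receptor for CD155 and nectin-2. It had 52.0 CPM in CD45-KO (49.4 to 54.7) and 38.5 CPM in LatY136F (36.5 to 40.6), a ratio of 0.43 (0.33 to 0.54), or 1.35-fold higher. At equal depth 5.17% of CD45-KO and 3.85% of LatY136F T cells carried a UMI, beside 1.45% of CD45-KO non-T cells and no LatY136F one of 23. The level was higher in CD45-KO in 7 of 9 states. Cycling cells had 43.3 CPM in CD45-KO and 26.9 CPM in LatY136F (0.69, 0.32 to 1.05), and Th2 cytokine-positive cells 53.3 and 32.2 CPM (0.73, 0.15 to 1.31). Both were past 1.5-fold in the higher direction, as 4.8% and 9.25% of all genes were in those states. The ratio of 1.47 in Cd8-positive cells (0.06 to 3.02) rests on 14 UMIs in CD45-KO and 7 in LatY136F, and 22.0% of all genes were past 1.5-fold higher there.

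Tfh-gated cells were low in Cd226, whereas they were the highest state for Icos. They had 35.4 CPM against 59.3 CPM in the remainder of the CD45-KO library (-0.74, -1.30 to -0.23) and 24.9 against 46.3 CPM in LatY136F (-0.90, -1.86 to -0.08). This was past 1.5-fold lower in both libraries, as for 8.07% of all genes, from 33 and 12 UMIs. With each gate minimum raised by 1 UMI, or with the gates applied independently, it was not past 1.5-fold in both.

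**Figure D4:**
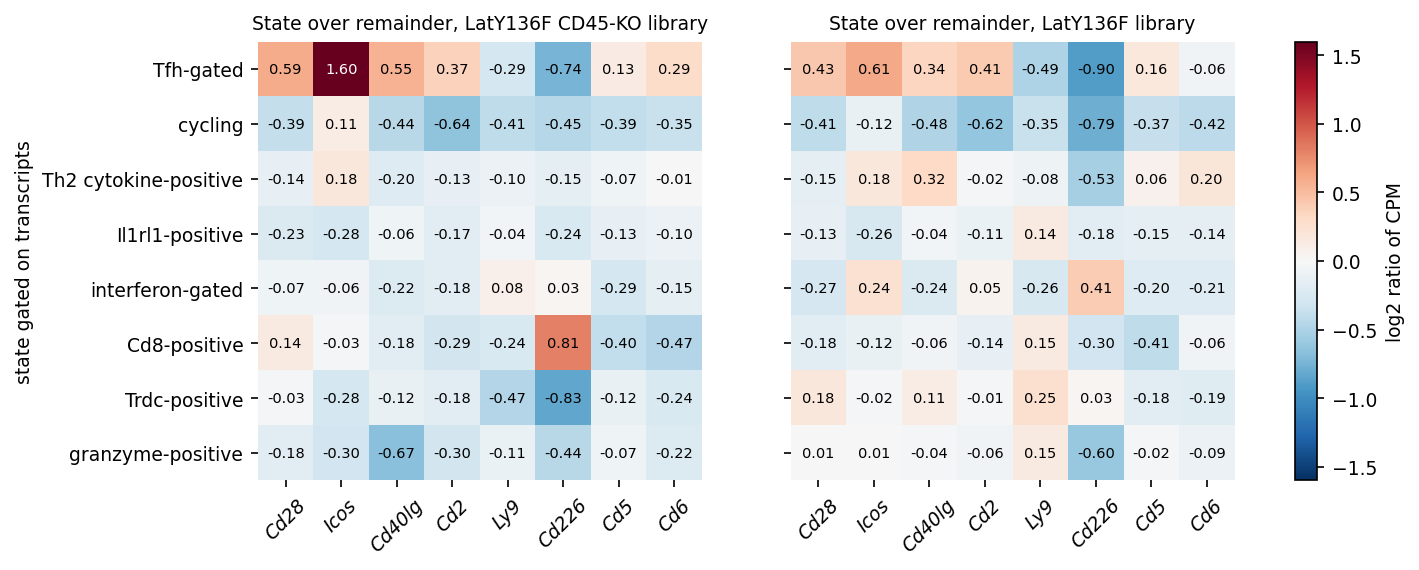
Log2 ratio of CPM of each T cell state over the remainder of the same library, for the 8 members with at least 10 CPM, in LatY136F CD45-KO (left) and LatY136F (right). Icos in Tfh-gated cells is the highest value in both grids (1.60 and 0.61), and Cd226 in Tfh-gated cells and Cd2 in cycling cells are past 1.5-fold lower in both.

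Cd5 (ENSMUSG00000024669.8; chromosome 19, 10717116 to 10739002, minus strand, protein coding) and Cd6 (ENSMUSG00000024670.17; chromosome 19, 10789341 to 10830058, minus strand, protein coding) are neighbours, and both were modestly higher in CD45-KO. The cells had been sorted on CD5 protein, so cells that lack it were not sampled. Cd5 had 662 CPM in CD45-KO (653 to 672) and 581 CPM in LatY136F (573 to 589), a ratio of 0.19 (0.16 to 0.22). It was higher in CD45-KO in all 9 states, by 0.03 in Th2 cytokine-positive to 0.22 in Trdc-positive cells. Among the 8 members Cd5 varied least across states, with the highest state 1.44-fold above the lowest in CD45-KO and 1.49-fold in LatY136F. A Cd5 UMI was found at equal depth in 47.4% of CD45-KO and 42.7% of LatY136F T cells, beside 8.70% and 13.04% of non-T cells.

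Cd6, a receptor for CD166 (Alcam), had 283 CPM in CD45-KO (277 to 289) and 224 CPM in LatY136F (219 to 229), a ratio of 0.34 (0.29 to 0.38). It was higher in CD45-KO in 8 of 9 states, and 89.7% of all genes had a lower ratio over T cells. In Tfh-gated cells it stood at 365 CPM in CD45-KO and 236 CPM in LatY136F (0.63, 0.32 to 0.95), past 1.5-fold as 12.5% of all genes were there. Tfh-gated cells were the highest state for Cd6 in CD45-KO but not in LatY136F, where Th2 cytokine-positive cells had 282 CPM and the neighbouring intervals overlapped. At equal depth 25.1% of CD45-KO cells with a Cd5 UMI also had a Cd6 UMI, against 23.6% of those without. The shares in LatY136F were 21.3% and 19.0%.

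The genes that work with these receptors were followed in 4 lists. Of 5 inhibitory receptors of T cells (Ctla4, Tigit, Cd96, Pdcd1 and Btla), all were tested and none was past 1.5-fold, and their median was -0.02. Ctla4, which competes with CD28 for its ligands, stood at 36.6 CPM in CD45-KO and 54.3 CPM in LatY136F (-0.57, -0.68 to -0.46), just inside the threshold. Tigit, the inhibitory counterpart of CD226, was at 71.6 and 93.4 CPM (-0.38). Cd96, which shares the ligand CD155 with both, was at 144 and 113 CPM (0.35), and Btla at 57.5 and 42.2 CPM (0.45). The list thus held values on both sides of 0.

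Among the ligands, 4 of 8 reached 10 CPM, 1 was past 1.5-fold, and the median was 0.02. Icosl, which encodes the ICOS ligand, was detected in the T cells themselves, at 70.9 CPM in CD45-KO and 113 CPM in LatY136F (-0.67, -0.75 to -0.60). It was the ligand past 1.5-fold, in the lower direction, as were 4.41% of all genes. Its ratio was below 0 in all 9 states, Tfh-gated cells included (-0.84, -1.68 to 0.01). The Tfh-gated value rests on 27 UMIs in CD45-KO and 25 in LatY136F, and its interval held 0. In that state 11.3% of all genes were past 1.5-fold lower. Cd274, the ligand of PD-1, was at 53.4 and 38.6 CPM (0.47). Icos and Icosl thus differed in the same direction over T cells. In Tfh-gated cells the Icos ratio was above 0, while the few Icosl UMIs left its direction unresolved.

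In the SLAM family and its adaptors, 6 of 8 were tested, 1 was past 1.5-fold, and the median was 0.02. Slamf7 stood at 11.7 CPM in CD45-KO and 5.03 CPM in LatY136F (1.22, 0.95 to 1.49), from 338 and 177 UMIs, where 2.75% of all genes were past 1.5-fold higher. Cd48, the ligand of CD2, was lower, at 198 CPM in CD45-KO and 266 CPM in LatY136F (-0.42), while the SAP gene Sh2d1a stood at 42.1 and 43.6 CPM (-0.05). Fyn, the Src family kinase that SAP recruits, was at 400 and 375 CPM (0.09).

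The partners inside the cell were 20 genes, all tested, with 6 below 0, 14 above, none past 1.5-fold and a median of 0.10. The median of all 8306 genes was 0.02, and 44.2% of them had a ratio below the -0.02 of Cd2. Rc3h1, Rc3h2 and Zc3h12a encode Roquin-1, Roquin-2 and Regnase-1, RNA-binding proteins known to repress Icos mRNA, and had ratios of 0.38, 0.37 and 0.35. Rc3h1 stood at 136 CPM in CD45-KO and 105 CPM in LatY136F. A link between these 3 ratios and the level of Icos was not tested. The phosphatidylinositol 3-kinase genes Pik3r1 and Pik3cd were at 0.12 and 0.08, and the exchange factor gene Vav1 at 0.37. Csnk2b and Camk2d, subunits of kinases known to bind CD5, were lower, at -0.42 and -0.50.

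**Figure D5:**
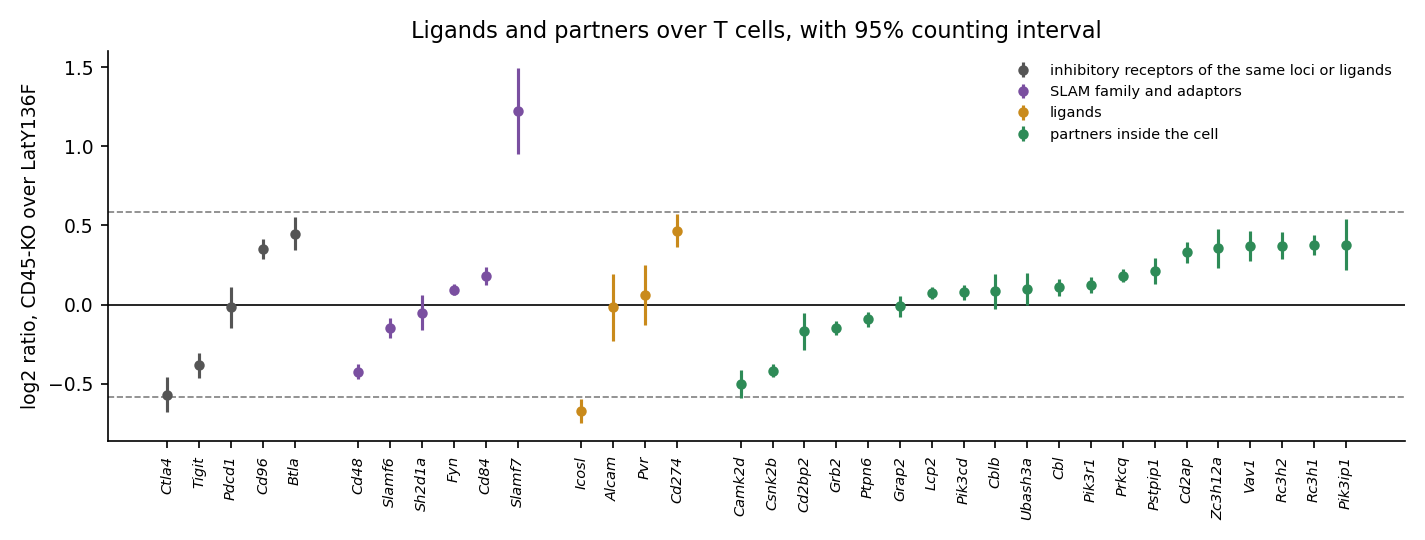
Log2 ratio of CPM over T cells, LatY136F CD45-KO over LatY136F, for the listed partner genes with at least 10 CPM, ordered by ratio within each list (points with 95% counting intervals). Slamf7 at 1.22 and Icosl at -0.67 lie beyond the dashed 1.5-fold lines, and none of the 20 partners inside the cell does.

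Across the 18 points formed by 9 states in 2 libraries, levels of other genes were compared with each member by Pearson's r of log2(CPM + 1), among 3740 genes with at least 50 CPM, without gate, mitochondrial, ribosomal and receptor segment genes. The points share library and depth, and the values are descriptions. Icos was most like Gstp3 (0.91) and Nek7 (0.91), and Cd28 most like Syt11 (0.87) and Tigit (0.87). Cd2 was most like Dtx3 (0.94) and Ypel3 (0.93), Cd40lg most like Malt1 (0.86) and Cd3g (0.85), and Ly9 most like Tmem30a (0.83) and Ostm1 (0.80). The others were Cd5 with Zbtb4 (0.91) and Tnks2 (0.89), Cd6 with 2610035D17Rik (0.82), and Cd226 with D17Wsu92e (0.85) and Mcl1 (0.82). Among the members, Cd28 went with Cd2 (0.84) and Cd40lg (0.80), Cd2 with Cd40lg (0.82), and Cd5 with Cd6 (0.79), while Icos ran against Cd226 (-0.46) and Ly9 (-0.43).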

How the data were processed

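The deposited files hold whole-number counts of UMIs per cell and gene, corrected for UMI errors by the authors' pipeline and not normalized further. Per the file headers they came from the BD whole transcriptome pipeline 1.9.1, and the reference was GRCm38 with GENCODE M19. Other sources differ (pipeline 2.0 and Seurat 4.04 in the design text, GRCm39 in the submitters' processing notes), and the headers were followed. Gene positions and coding sequence came from GENCODE M21 on GRCm38.

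Cells were kept from 200 genes upward and up to a mitochondrial share of 25%, which removed 11 CD45-KO and 28 LatY136F cells. A gene absent from a table was given a count of 0. No doublet caller was run, and removing cells above 3 times the median UMI count was an alternative. Counts were summed per library and state. Ratios have exact conditional binomial intervals for 2 Poisson counts, levels exact Poisson intervals, and shares exact Clopper-Pearson intervals, all for counting error at 95%. The interval code was tested on simulated Poisson counts, the model the ratio intervals assume, so that test does not cover spread between cells. The computation used Python 3.11.15, numpy 2.4.6 and scipy 1.17.1, and the scaling alternatives used edgeR 4.0.16 (TMM) and DESeq2 1.42.0 (size factors), without their tests.

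The 9 members, the gates and the partner lists were chosen with earlier results of these data known. All members are named. From the partner lists, genes with at least 20 CPM could be named and those past 1.5-fold always were, and for likeness the 2 genes with the highest r per member. Some genes that this rule or the lists name are not reported here.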

Additional observations from a re-analysis of the deposited data

Results flagged for a closer look

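The ratio of Icos between genotypes took opposite signs in different T cell states, with counting intervals on opposite sides of 0. In Tfh-gated cells it was 0.28 (CD45-KO 1116 CPM, LatY136F 916 CPM), and in granzyme-positive cells it was -1.02 (299 and 606 CPM). The Tfh-gated ratio was inside 1.5-fold, and 12.5% of all genes were past 1.5-fold higher there. In granzyme-positive cells 17.3% of all genes were past 1.5-fold lower. With 1 library per genotype the difference between the states was not tested. The Tfh-gated cells numbered 267 in CD45-KO and 148 in LatY136F, and the granzyme-positive cells 111 and 900. Median depths were 3186 and 3100 UMIs in Tfh-gated cells and 2456 and 2447 UMIs in granzyme-positive cells.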

How the results depend on the processing

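Over the 12 alternatives of scaling, cell filter, thinning and cell weighting, 8 of the 9 genotype ratios over T cells kept their sign, and Cd2 ran from -0.08 to 0.06. Holding the mix of states equal, which is not among the 12, took Cd40lg from 0.07 to -0.01. Icos ran from -0.69 with cells thinned to 1000 UMIs to -0.57 with at most 10% mitochondrial UMIs. Under that stricter filter, with 7858 CD45-KO and 10575 LatY136F cells, Icos had 388 and 574 CPM, 1.48-fold lower, and the count of members past 1.5-fold was 0 in place of 1. The cause was not tested. Among the 8 members with at least 10 CPM, the number of member and state pairs past 1.5-fold over the remainder in both libraries was 3, and it was 6 with gates set on cells thinned to 1000 UMIs, which added Cd28, Cd40lg and Cd226, all lower in cycling cells. It was 2 with each gate minimum raised by 1 UMI, where Cd226 in Tfh-gated cells was lost. With gates applied independently it was 3, all lower: both Tfh-gated pairs were lost, and Cd40lg in Cd8-positive cells (CD45-KO -0.75, LatY136F -0.61) and Cd226 in Th2 cytokine-positive cells (-0.59 and -0.64) were added. Under the main gates, the share of all genes past 1.5-fold lower in both libraries was 10.1% in cycling cells. It was 6.81% in Cd8-positive and 0.47% in Th2 cytokine-positive cells. Shares for the other gates are not given. Leaving out the shared cell indices, and the settings for Icos in Tfh-gated cells, were chosen after seeing the data. No paired analysis was possible because each genotype has 1 library. Depth limits Slamf1 everywhere and Cd226 and Cd40lg in the small states, where few UMIs were counted.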
